A study of Mus musculus with 33 samples.

Results

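The comparison described here sets lungs of mice that received the vector AAV-hSPB in 2 doses against lungs of untreated mice that stayed on doxycycline. It holds 8 of the 33 samples of the series, 4 in each group, chosen by their labelled treatment, and every endogenous gene of the panel was used. All the mice were CCSP-rtTAtg/(teto)7Sftpb/Sftpb-/- on the FVB/N strain: their endogenous gene for surfactant protein B (SP-B) is deleted, and they make SP-B from a transgene that the doxycycline-dependent activator rtTA switches on under the airway (club cell) CCSP promoter. The 4 on-doxycycline lungs came from mice given no vector and kept on doxycycline feed, which the study used as its positive control. The 4 repeat lungs came from mice dosed into the trachea at day 0 and again at day 90 and taken off doxycycline at day 7. Both groups were taken at day 97, so the repeat lungs were 7 days from the last dose and 90 days without doxycycline, and each group held 2 female and 2 male lungs. The 2 groups therefore differ in vector, in the dosing procedure and in doxycycline, which cannot be told apart here. Other groups of 4 lungs from day 97 are used only where named: untreated mice taken off doxycycline at day 94, mice given AAV-hSPB at day 0 alone, and mice given both doses with the vector AAV-hSPBTLR9i. Whether every lung is from a different animal is not labelled, and p-values here cover the variation among lung samples. Total RNA of the right lung was counted by nCounter, in which fluorescent barcodes hybridized to single RNA molecules are counted without amplification, on a panel of 773 mouse genes.

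Adeno-associated virus enters cells as a capsid that holds single-stranded DNA, and a host that has met a capsid before carries antibodies and memory T cells against it. Activated T cells and natural killer cells make interferon-gamma, which acts on many cell types. Its target genes include the chemokines that call T cells through the receptor CXCR3, the guanylate-binding GTPases, and the parts of the cell that cut peptides and load them on MHC molecules for display to T cells. Type I interferons, made after nucleic acids are sensed, act on an overlapping set of antiviral genes.

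Total recovered counts per lung ran from 676906 to 832041 on doxycycline and from 597788 to 856619 after the repeat, and between 80 and 110 genes per lung had fewer than 20 counts. A gene counted as above background in a lung where it passed the average of the 8 dimmest control probes by over 2 SD. Levels of Ager, a gene of alveolar type 1 cells, were 14.32 to 14.75 log2 normalised counts on doxycycline and 14.21 to 14.56 in the repeat lungs, so the labelled tissue's markers were present, and Lamp3, of alveolar type 2 cells, lay between 11.91 and 12.62 in all 8. On-doxycycline replicate 1 and repeat replicate 2 stood apart from the rest of their groups. Across genes, the former correlated with the other on-doxycycline lungs at 0.949 to 0.962 (Pearson's r), whereas these reached 0.972 to 0.98 among themselves, and it carried 51318 summed normalised counts of 5 liver transcripts against 645 to 871 in the other 3. Repeat replicate 2 correlated at 0.944 to 0.953 with the other repeat lungs, which reached 0.98 to 0.982 among themselves. It had the lowest total count and 4401 summed counts of 4 endothelial genes against 8842 to 11895. Calls, counts and medians that change by over 1.5 times without either lung are given with and without it where they are described. The on-doxycycline and repeat lungs also lie in separate runs of 12 consecutive sample numbers. The labels do not say whether those were measured apart, so such a difference and the treatment cannot be told apart.

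Among the gene lists, the CXCR3 chemokines and their receptor were called higher after the repeat dose in 4 of 4 measured genes, guanylate-binding proteins in 3 of 3, MHC class I presentation in 10 of 11, MHC class II presentation in 6 of 8, T cell checkpoints in 8 of 11 and B cell genes in 9 of 14. Lower calls were fewer, and among them were 3 of 10 heat shock and endoplasmic reticulum genes, of which another 3 were higher. Of 773 genes, 180 were higher (23.3%) and 23 lower (2.98%) at an adjusted p under 0.05 in limma, and 302 (39.1%) had an unadjusted p under 0.05. The median difference over all genes was 0.15 log2 units. That split depended on the scale. With each lung scaled to its median gene the counts were 98 and 119 and the median was -0.07, and with scaling to all 12 reference genes they were 114 and 73 with a median of 0.02. Of the genes called on the authors' scale, 96 higher and all 23 lower were called under both other scalings too. When in addition each of the 8 lungs was left out in turn, 88 higher and 8 lower remained called throughout. A fit of the 8 lungs alone, without the spread of the other 4 groups, called 80 higher and 4 lower. It kept 77 of the higher and 3 of the lower calls. Class II presentation then held 3 higher calls, and the type I interferon antiviral genes 3. T cell receptor genes held 4, costimulatory and regulatory T genes 7, checkpoints 5, B cell genes 5 and monocyte genes 4. The interferon receptor and JAK-STAT list held 3, the cytosolic sensors 3, and the lipid and sugar genes 0 lower calls. MHC class I kept 10 higher calls and the guanylate-binding proteins 3. Among the calls lost in this fit were Tyk2, Irf9, Isg15, Oas1a, Ctsl, Casp1, Il18, Pdcd1lg2, Spib, Ccl8, Fpr1, Ncf1, Hsp90ab1, Tcn2 and Ace. Losses in this fit are not repeated gene by gene below. Without on-doxycycline replicate 1 there were 13 lower calls, 11 of them among the 23. Without repeat replicate 2 there were 14, of which 10 were among the 23. In 141 genes (18.2%) all 4 repeat lungs lay above all 4 on-doxycycline lungs, and in 35 (4.53%) all lay below. In the text that follows, differences are repeat minus on doxycycline in log2 units ± SE with n = 4 per group, levels are log2 normalised counts in order of replicate, and gene lists are read against these background shares and the median of 0.15.

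**Figure D1:**
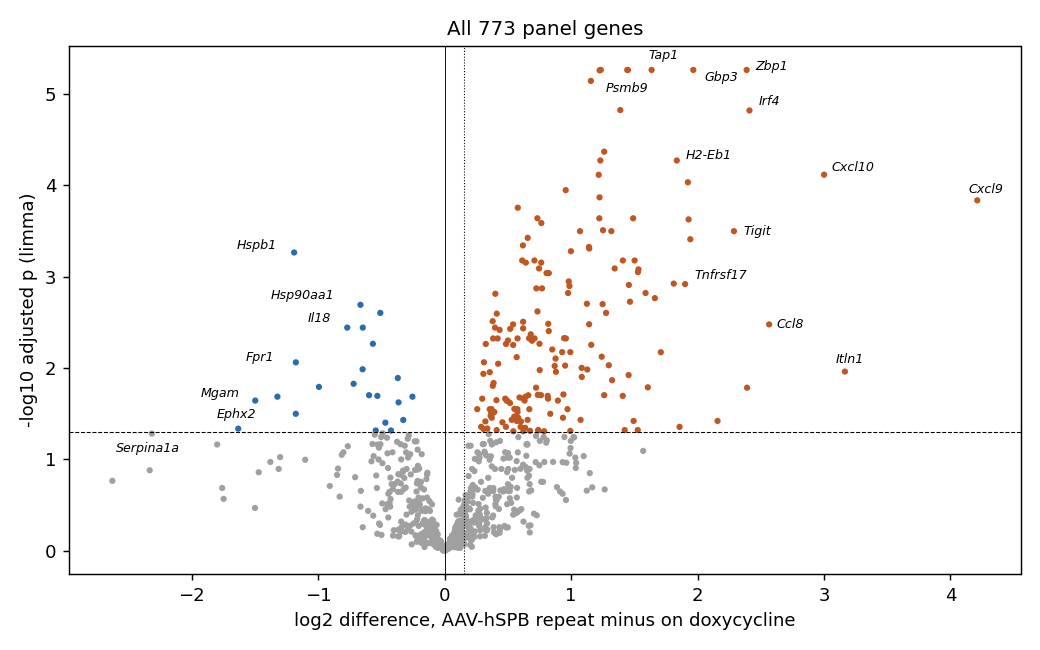
Each point is 1 of the 773 genes, with the log2 difference (repeat minus on doxycycline) on the x axis and -log10 of the limma adjusted p on the y axis; orange and blue points lie above the dashed line at an adjusted p of 0.05, and the dotted line marks the median difference of 0.15. The 180 higher genes reach 4.21 (Cxcl9), whereas the 23 lower genes reach -1.63 (Ephx2).

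The CXCR3 axis held the largest rise of the panel. Cxcl9, a ligand of CXCR3, stood at 5.74, 3.94, 7.07 and 3.02 on doxycycline and at 7.66, 8.76, 9.79 and 10.42 in the repeat lungs, a difference of 4.21 ± 0.67 (adjusted p = 0.000146). The groups did not overlap, but 2 of the on-doxycycline lungs were not above background, and with these raised to it the difference was 3.85. Cxcl10, another ligand, rose by 3.00 ± 0.44 from 5.08, 4.71, 5.36 and 3.85 to 6.92, 7.12, 7.96 and 9.00. For both ligands the 2 male repeat lungs were the highest of the group. Cxcl11, the remaining ligand, rose by 2.39 ± 0.70 (adjusted p = 0.0164), with 3 on-doxycycline lungs and 1 repeat lung not above background, and its call was lost without repeat replicate 2 (1.88, adjusted p = 0.0596), repeat replicate 4 or on-doxycycline replicate 4 (1.88 to 2.10). The receptor Cxcr3, carried by activated T cells, rose by 1.47 ± 0.31, with levels of 5.68, 6.44, 6.09 and 5.38 against 7.71, 6.20, 7.27 and 8.26. Repeat replicate 2, high for Cxcl11 at 7.45, was the repeat lung that overlapped the on-doxycycline lungs for the receptor. All 4 measured members of this list were thus called higher, and 2 of them in the fit of the 8 lungs alone.

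The 3 measured guanylate-binding protein genes, whose GTPases attack the vacuoles and membranes of pathogens inside cells, all rose. Gbp3 went from 7.13, 6.16, 6.71 and 6.72 to 9.15, 8.39, 8.22 and 8.83 (1.97 ± 0.23, adjusted p = 5.45e-06). Gbp5 went from 8.21, 7.38, 8.20 and 7.59 to 10.17, 9.50, 9.25 and 10.15 (1.92 ± 0.29), and Gbp2 rose by 1.39 ± 0.18. None of the 3 had overlapping groups, and none lost its call under any of 18 other settings, in which Gbp3 ranged from 1.74 to 2.20.

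Promoters of 4 of these and the following genes are printed because they hold the motifs searched for interferon-regulated and heat-regulated genes. They are, from each of 4 lists, the called gene of largest difference whose RefSeq window holds a motif. The windows ran from 250 bases before to 50 after an annotated gene start on GRCm38.p6, and 593 of the 773 genes had one. The motifs, sought on both strands, were the core of the interferon-stimulated response element (ISRE, GAAA and GAAA with any 2 bases between), the gamma-activated site (GAS, TTC and GAA with any 3 bases between) and the heat shock element (GAA, TTC and GAA with any 2 bases between neighbours). The bases printed end before the outermost annotated start of the gene, read 5′ to 3′ on the gene's strand, and show motif matches in capitals. Cxcl10 (chr5:92348890-92349139, minus strand) holds an ISRE core from position -213 to its start, Gbp3 (chr3:142559794-142560015, plus strand) holds 2 overlapping ones on the other strand from -45 and -39, H2-T23 (chr17:36032702-36032951, minus strand) holds 1 from -124 and Eif2ak3 (chr6:70844265-70844483, plus strand) holds a GAS from -129.
Cxcl10: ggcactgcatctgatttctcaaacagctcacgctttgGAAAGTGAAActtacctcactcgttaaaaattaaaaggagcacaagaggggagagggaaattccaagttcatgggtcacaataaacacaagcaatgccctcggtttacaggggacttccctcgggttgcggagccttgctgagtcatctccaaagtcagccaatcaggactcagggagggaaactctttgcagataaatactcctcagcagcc
Gbp3: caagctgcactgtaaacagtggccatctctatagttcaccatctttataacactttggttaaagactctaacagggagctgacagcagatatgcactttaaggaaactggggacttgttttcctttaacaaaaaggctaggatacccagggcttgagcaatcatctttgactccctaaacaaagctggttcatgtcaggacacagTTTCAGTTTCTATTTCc
H2-T23: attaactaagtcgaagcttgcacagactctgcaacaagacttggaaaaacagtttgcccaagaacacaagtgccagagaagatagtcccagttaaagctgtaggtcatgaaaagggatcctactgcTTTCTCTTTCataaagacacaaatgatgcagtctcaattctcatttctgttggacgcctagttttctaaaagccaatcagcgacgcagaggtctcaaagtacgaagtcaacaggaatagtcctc
Eif2ak3: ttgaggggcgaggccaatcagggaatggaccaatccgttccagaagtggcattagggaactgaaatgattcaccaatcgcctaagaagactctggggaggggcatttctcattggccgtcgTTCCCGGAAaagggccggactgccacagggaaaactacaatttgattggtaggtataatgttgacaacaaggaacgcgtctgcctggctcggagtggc
An ISRE core was found in 3.44% of all 32851 RefSeq windows, in 7.63% of the windows of panel genes and in 9.3% of those of genes called higher. For the GAS the shares were 8.3%, 10.8% and 11%. Each of Gbp2, Gbp3 and Gbp5 held an ISRE core, whereas Cxcl9 and Cxcr3 held none of the 3 motifs in these windows. The heat shock element was found in 0.603% of all windows and in none of the 7 windows of the heat shock list. Those were the windows of Atf4, Ddit3, Eif2ak3, Ern1, Hsp90b1, Hspb1 and Xbp1. Hsp90aa1 and Hsp90ab1 had no window, so their promoters were not searched. These shares describe letters in short windows and were not tested.

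Transcripts of interferon receptors and their signalling partners were called higher in part. Stat2, a factor of type I signalling, rose by 0.66 ± 0.12, the kinase Tyk2 by 0.99 ± 0.20 and the feedback inhibitor Socs1 by 0.75 ± 0.21, each in 4 of 4 repeat lungs above every on-doxycycline lung. Jak3, the kinase of the common gamma chain receptors, rose by 0.90 ± 0.28, but repeat replicate 2 stood at 9.40 against 8.12 to 8.25 in the others, and the call was lost without it (0.59), without on-doxycycline replicate 1, 2 or 4 (up to 0.87) and under either other scaling. Of 19 measured receptors, kinases, STATs and SOCS genes 7 were called higher and none lower. Their median was 0.11, or 0.27 without on-doxycycline replicate 1 and 0.23 without repeat replicate 2, so on which side of the median of all genes it lay depended on these lungs. With median-gene scaling 4 were higher and 5 lower.

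Among the interferon regulatory factors, Irf4, which B and T cells use to become plasma cells and effector cells, changed most. It went from 6.10, 5.92, 6.44 and 5.69 to 8.43, 7.67, 7.98 and 9.72 (2.41 ± 0.31, adjusted p = 1.51e-05), and kept its call in all 18 other settings. Irf9, a DNA-binding partner of STAT2, rose by 0.68 ± 0.16. Irf7, which amplifies type I interferon, rose by 0.72 ± 0.21, and this call was lost with median-gene scaling and without on-doxycycline or repeat replicate 4 (0.56 to 0.60).

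The antiviral genes of the type I response were mixed. Of 26 measured, 10 were called higher and 1 lower, with a median of 0.35, and none was lower without on-doxycycline replicate 1 or repeat replicate 2. Mx1, a GTPase that blocks viral replication, rose by 1.53 ± 0.30 from 4.61, 4.66, 4.80 and 4.38 to 6.29, 6.72, 5.25 and 6.32. Isg15, a ubiquitin-like modifier, rose by 1.14 ± 0.26 from 7.82, 7.65, 7.38 and 7.17 to 8.08, 9.60, 8.31 and 8.62. Oas1a, which makes the activator of RNase L, rose by 1.16 ± 0.29, Ifi44 by 1.08 ± 0.30 (not called without repeat replicate 4, 0.85) and Xaf1 by 0.64 ± 0.12. Rsad2 (viperin) instead had a difference of -0.44 ± 0.30 (adjusted p = 0.3). The membrane restriction factor Ifitm1 was called lower (-0.54 ± 0.20, adjusted p = 0.0483), a call lost without any on-doxycycline lung or without repeat replicate 1 or 2 (-0.58 to -0.30). Oas3 was called higher, although none of the 8 lungs was above background for it, as was also so for the calls of Il23a, Ccr8 and Cd70.

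None of the 8 measured interferon genes was called, and 2 were called higher without repeat replicate 2. Their median was 0.58, or 0.03 with lungs not above background raised to it. Ifnb1 was above background in no lung. Ifng stood at 2.81, 3.76, 3.15 and 2.85 on doxycycline, all not above background, and at 4.19, 1.48, 4.39 and 4.95 in the repeat lungs (0.61 ± 0.46, adjusted p = 0.351, or 0.33 with lungs not above background raised to it). Repeat replicate 2 was the lowest of all 8 lungs, and without it the difference was 1.36 (adjusted p = 0.000253). That difference takes the on-doxycycline levels as measured, although none was above background. It was not computed with these levels raised to background.

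**Figure D2:**
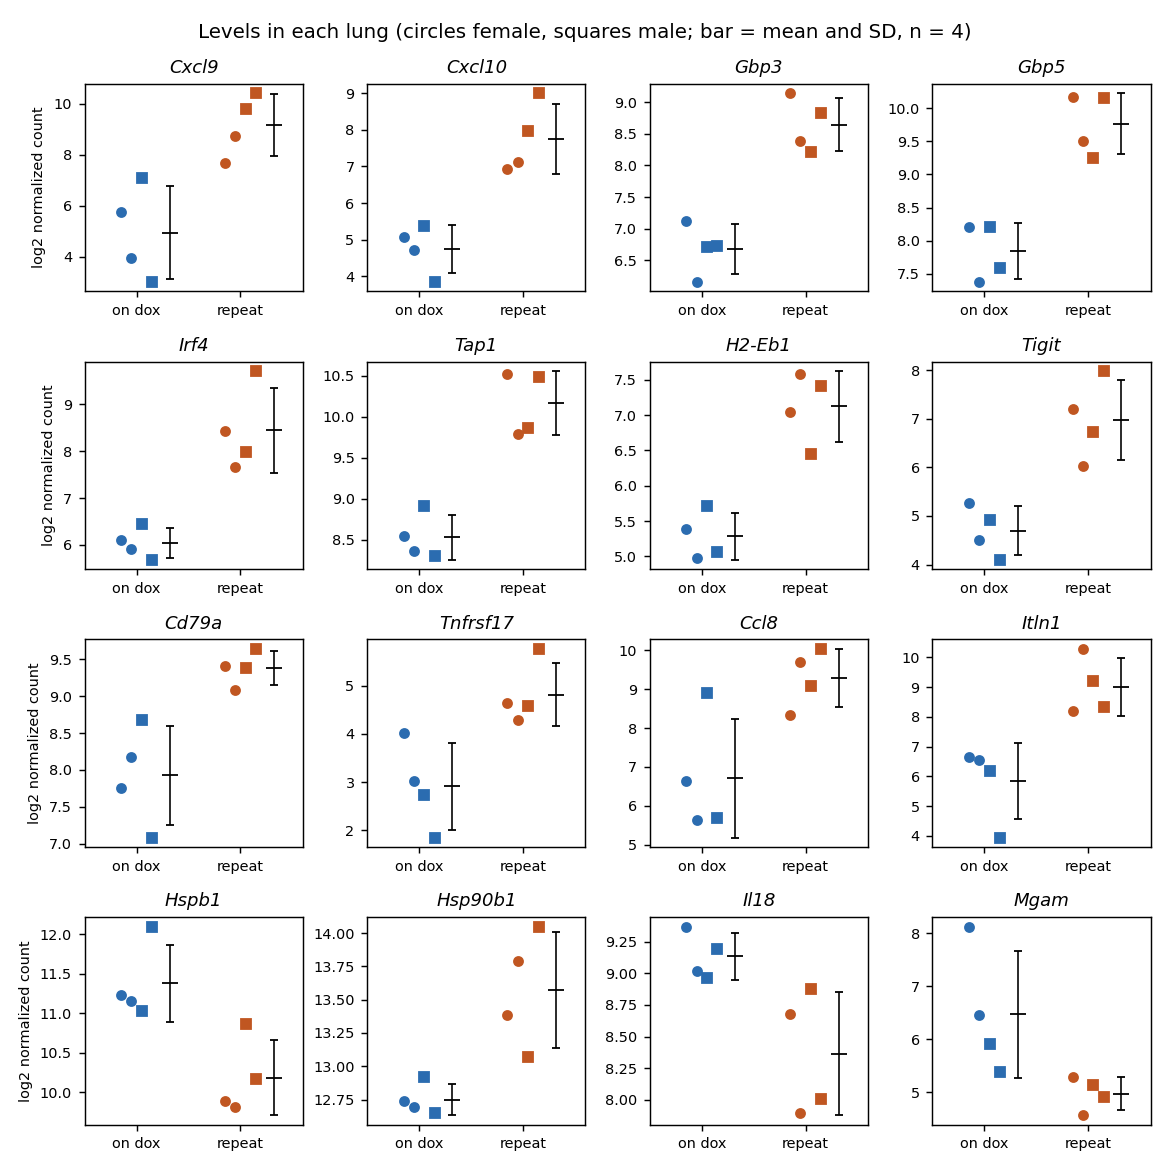
Log2 normalised counts of 16 genes in each of the 8 lungs, on doxycycline in blue and after repeat dosing in orange, with circles for female and squares for male lungs and bars for mean and SD (n = 4). In the 12 genes of the first 3 rows the repeat lungs stand above the on-doxycycline lungs, apart from 1 on-doxycycline lung for Ccl8, and in the last row Hspb1, Il18 and Mgam stand below while Hsp90b1 stands above.

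Peptide display on MHC class I was higher in 10 of 11 measured genes, with a list median of 1.24. The count was also 10 under 8 of the 18 other settings, among them both other scalings and the fit of the 8 lungs alone. The list's counts under the remaining settings are not given here. The peptide transporter genes Tap1 and Tap2 rose by 1.64 ± 0.19 and 1.16 ± 0.14, Tap1 from 8.54, 8.36, 8.90 and 8.30 to 10.52, 9.79, 9.86 and 10.48. The immunoproteasome subunits, which replace constitutive ones to cut peptides for class I, differed in size: Psmb9 rose by 1.44 ± 0.16, Psmb8 by 1.24 ± 0.14 and Psmb10 by 0.61 ± 0.12. Psmb9 went from 9.27, 9.15, 9.36 and 9.04 to 11.00, 10.44, 10.23 and 10.91. Nlrc5, the activator of class I transcription, rose by 1.93 ± 0.32 from 6.35, 6.28, 6.94 and 5.85 to 8.73, 8.60, 7.43 and 8.38. The classical chains H2-D1 and H2-K1, at 12.91 to 13.28 on doxycycline and thus already abundant, rose by 1.26 ± 0.18 and 0.81 ± 0.16, and the non-classical H2-T23 rose by 1.49 ± 0.25. Tap1, Psmb9, Nlrc5, H2-D1, H2-K1 and H2-T23 had no overlap between groups. The gene not called was H2-Q10, which is expressed mainly in liver. It stood at 11.09 in on-doxycycline replicate 1 and at 3.48 to 4.29 in the other 7 lungs, and its difference of -1.76 ± 1.01 became 0.03 without that lung.

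Class II genes, which display peptides from outside the cell to CD4 T cells, were higher in 6 of 8 and lower in 1. H2-Eb1 rose by 1.84 ± 0.26 from 5.39, 4.98, 5.71 and 5.06 to 7.04, 7.58, 6.45 and 7.41. H2-Ab1, a chain of I-A, rose by 1.23 ± 0.19 and H2-DMa, of the peptide exchange factor, by 1.23 ± 0.15. The 2 cathepsins moved apart. Ctss, which cleaves the class II invariant chain in antigen-presenting cells, rose by 0.74 ± 0.22, a call lost under either other scaling and without on-doxycycline replicate 2 or 4 or repeat replicate 2 (0.59 to 0.66), and Ctsl, which does so in thymic epithelium, was lower by a difference of -0.51 ± 0.11, from 11.20, 10.82, 10.95 and 11.09 to 10.65, 10.60, 10.50 and 10.27.

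Of 11 cytosolic nucleic acid sensors and partners 6 were called higher, with a median of 0.66, and 4 without on-doxycycline replicate 1 or without repeat replicate 2 and 3 without both. Zbp1, a sensor of Z-form nucleic acid, went from 6.05, 5.85, 6.34 and 5.24 to 8.31, 8.52, 7.78 and 8.44 (2.39 ± 0.27, adjusted p = 5.45e-06). Aim2, a sensor of cytosolic DNA that builds inflammasomes, rose by 1.07 ± 0.19. Cgas and Sting1, sensor and adaptor of another DNA pathway, rose by 0.66 ± 0.22 and 0.74 ± 0.27, but both calls were lost under either other scaling, where the list held 3 higher calls, and in most fits without 1 lung. For Cgas those were the fits without on-doxycycline replicate 1 or 2 or repeat replicate 1, 2 or 4 (0.47 to 0.70), and for Sting1 all but the fit without on-doxycycline replicate 3 (0.59 to 0.81). Of 19 Toll-like receptors and adaptors 2 were called higher. Tlr1 rose by 1.22 ± 0.20. Tlr9, which detects CpG DNA without methylation in endosomes, went up by 0.94 ± 0.28 (adjusted p = 0.0195) from 5.43, 5.25, 6.20 and 4.98 to 6.53, 5.76, 6.30 and 7.02, a call lost with median-gene scaling and without on-doxycycline replicate 2 or 4 or repeat replicate 4 (0.73 to 0.87). The adaptor Myd88 had a difference of 0.39 ± 0.22 (adjusted p = 0.207).

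Among 21 inflammasome and interleukin-1 family genes 4 were higher and 2 lower, with 1 lower without on-doxycycline replicate 1 or without repeat replicate 2. The adaptor Pycard rose by 1.34 ± 0.26 from 7.62, 7.50, 8.18 and 7.34 to 8.85, 9.65, 8.43 and 9.08, and Casp1, the protease that matures interleukin-18, rose by 0.82 ± 0.19. The cytokine gene Il18 was lower, from 9.37, 9.02, 8.96 and 9.19 to 8.68, 7.89, 8.88 and 8.01 (-0.77 ± 0.18, adjusted p = 0.00361), while its decoy receptor Il18bp rose by 0.62 ± 0.14. In Il18 repeat replicates 1 and 3 lay just below the on-doxycycline lungs and replicates 2 and 4 well below. Il1b had a difference of -0.56 ± 0.49 (adjusted p = 0.414).

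**Figure D3:**
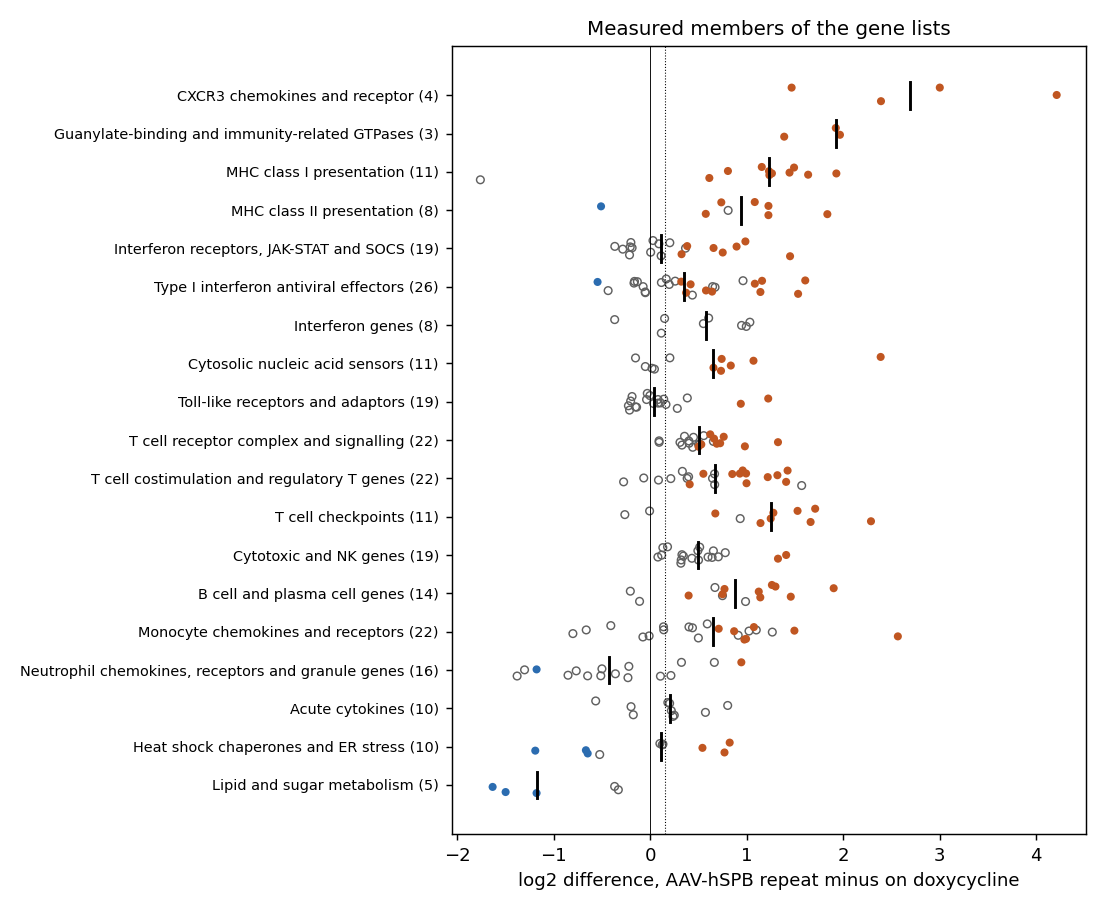
Log2 differences (x axis, repeat minus on doxycycline) of the measured members of 19 gene lists, with the number of members in brackets, filled points for genes with an adjusted p under 0.05, open points for the others, a black bar at the list's median and a dotted line at the median of all genes, 0.15. The CXCR3, guanylate-binding, MHC class I and checkpoint lists have medians of 2.70, 1.92, 1.24 and 1.25, and the neutrophil and lipid lists have medians of -0.43 and -1.18.

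Inhibitory receptors of T cells and their ligands were higher in 8 of 11 measured genes, with a median of 1.25, and in 6 with 1 lower under median-gene scaling. Tigit, a receptor of activated and regulatory T cells, went from 5.27, 4.50, 4.91 and 4.10 to 7.19, 6.03, 6.72 and 7.98 (2.29 ± 0.40, adjusted p = 0.000317). Ctla4, which competes with CD28 for its ligands, went from 4.61, 4.02, 4.16 and 3.66 to 4.97, 5.56, 6.10 and 6.47 (1.66 ± 0.35), and Lag3, a receptor for MHC class II, rose by 1.25 ± 0.27. For Ctla4, 2 on-doxycycline lungs were not above background, and the difference was 1.48 with these raised to it. On the ligand side Cd274 (PD-L1) rose by 1.14 ± 0.21 from 8.23, 8.27, 8.65 and 7.88 to 9.72, 9.10, 9.06 and 9.71. Pdcd1lg2 (PD-L2) rose by 1.28 ± 0.28 and Ido1, which breaks down tryptophan, by 1.71 ± 0.44 from levels not above background in any on-doxycycline lung, a difference of 1.11 with these raised to it. Pdcd1 (PD-1) was called higher at 1.53 ± 0.55 (adjusted p = 0.0478), a call lost under either other scaling and without on-doxycycline replicate 2 or 4 or repeat replicate 2, 3 or 4 (1.24 to 1.54). Its level was not above background in 2 on-doxycycline lungs, and the difference was 1.17 with these raised to it.

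Costimulatory and regulatory T genes were higher in 11 of 22, in 7 under either other scaling and in 7 without on-doxycycline replicate 1. Cd28, the main costimulatory receptor, went from 6.73, 6.95, 6.74 and 6.19 to 8.04, 7.64, 7.61 and 8.20 (1.22 ± 0.18, adjusted p = 7.66e-05). Icos rose by 0.96 ± 0.23, Tnfrsf4 (OX40) by 1.32 ± 0.23, Tnfrsf18 (GITR) by 1.00 ± 0.18, and Cd86, a ligand of CD28 and CTLA-4 on antigen-presenting cells, by 0.85 ± 0.22. For Tnfrsf4, 2 on-doxycycline lungs were not above background, and the difference was 1.29 with these raised to it. Foxp3, the factor of regulatory T cells, went from 4.92, 3.85, 4.40 and 3.94 to 5.03, 6.88, 5.17 and 5.67 (1.41 ± 0.43, adjusted p = 0.0202). Repeat replicate 2 was the highest, and the call was lost without it (1.01) and without on-doxycycline replicate 2 or 4 (up to 1.30). Foxp3 was not above background in 2 on-doxycycline lungs, and its difference was 1.25 with these raised to it. Il10 was called at 1.42 ± 0.52, with all on-doxycycline lungs and 2 repeat lungs not above background and a difference of 0.37 with these raised to it. Its call was lost then, under either other scaling, and without any lung but on-doxycycline replicate 3 and repeat replicate 1 (0.84 to 1.62).

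Of 22 genes of the T cell receptor and its proximal signalling 9 were called higher, with a median of 0.51, in 3 with median-gene scaling and in 16 without repeat replicate 2. Cd3e stood at 7.48, 7.18, 7.22 and 6.55 on doxycycline and at 7.90, 6.56, 7.74 and 8.00 in the repeat lungs, a difference of 0.44 ± 0.26 (adjusted p = 0.219). Without repeat replicate 2, whose level was near the lowest on-doxycycline lung, it was 0.77 (adjusted p = 0.00957). Cd6, a receptor on mature T cells, rose by 0.98 ± 0.20 and Cd4 by 0.76 ± 0.23, the latter call lost under either other scaling and without on-doxycycline replicate 2 or 4 or repeat replicate 4 (0.61 to 0.69). Cd8a was called at 1.32 ± 0.38, with 3 on-doxycycline lungs and 1 repeat lung not above background and a difference of 0.57 with these raised to it, and it was not called without on-doxycycline replicate 2 (1.06). Of 19 cytotoxic and NK genes 2 were called higher, Cd8a and Xcl1, a chemokine of CD8 T and NK cells (1.41 ± 0.27), and 4 without on-doxycycline replicate 1 and repeat replicate 2 together. Gzmb, granzyme B, had a difference of 0.43 ± 0.49 (adjusted p = 0.554), with 3 lungs of each group not above background. The lymphocyte adaptor Lax1, which restrains antigen receptor signalling, went from 6.49, 6.63, 6.91 and 5.90 to 8.80, 7.10, 8.12 and 9.68 (1.94 ± 0.34), and the cytokine receptor Il21r rose by 1.25 ± 0.21.

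B cell genes were higher in 9 of 14, with a median of 0.88, and in 12 without repeat replicate 2. Cd79a, a signalling chain of the B cell receptor, went from 7.76, 8.18, 8.67 and 7.08 to 9.41, 9.09, 9.38 and 9.64 (1.46 ± 0.30, adjusted p = 0.00123), and its partner Cd79b rose by 1.26 ± 0.38 but was not called when on-doxycycline replicate 4 or repeat replicate 1 or 4 was left out (0.97 to 1.12). Cd22, an inhibitory coreceptor, rose by 1.14 ± 0.21 and the B-lineage factor Spib by 1.13 ± 0.24. Ms4a1 (CD20) had a difference of 0.99 ± 0.42 (adjusted p = 0.0866), with levels of 7.59, 7.69, 8.70 and 6.59 against 9.12, 7.23, 9.07 and 9.10. The low lung was again repeat replicate 2, and without it the difference was 1.46 (adjusted p = 0.00697). Without on-doxycycline replicate 3 the gene was called too, at 1.34. Tnfrsf17 (BCMA), a survival receptor of plasma cells, went from 4.03, 3.02, 2.74 and 1.85, none above background, to 4.63, 4.28, 4.57 and 5.77, with 1 not above it. Its difference of 1.90 ± 0.39 was 0.69 with such lungs raised to background. Cxcl13, which draws B cells into follicles, had a difference of 0.73 ± 0.62 (adjusted p = 0.41).

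Genes of protein folding moved both ways. The endoplasmic reticulum chaperone Hsp90b1 (GRP94) went from 12.74, 12.69, 12.92 and 12.65 to 13.38, 13.79, 13.07 and 14.05 (0.82 ± 0.16, adjusted p = 0.000914). Xbp1, a factor of the unfolded protein response that plasma cells require, rose by 0.77 ± 0.16 and the stress kinase Eif2ak3 (PERK) by 0.54 ± 0.14, a call lost with median-gene scaling. The 3 lower genes encode cytosolic chaperones. Hspb1 went from 11.23, 11.16, 11.03 and 12.10 to 9.89, 9.81, 10.87 and 10.17 (-1.19 ± 0.22, adjusted p = 0.000543), Hsp90aa1 from 13.43, 13.30, 13.03 and 13.63 to 12.44, 12.76, 12.93 and 12.59 (-0.67 ± 0.14), and Hsp90ab1 by a difference of -0.65 ± 0.15. All 3 had groups that did not overlap and stayed lower under either other scaling and without any single lung. Of the 10 measured genes of this list 3 were thus higher and 3 lower.

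Monocyte chemokines and receptors were higher in 7 of 22, with a median of 0.65. Ccl8, a ligand for monocytes and T cells, went from 6.65, 5.63, 8.90 and 5.69 to 8.34, 9.68, 9.07 and 10.03 (2.57 ± 0.59, adjusted p = 0.00333), with on-doxycycline replicate 3 above the lowest repeat lung. Ccr2, the receptor that brings inflammatory monocytes, rose by 0.99 ± 0.25, Cx3cr1 by 0.98 ± 0.20 and the growth factor receptor Csf1r by 0.71 ± 0.13, each in 4 of 4 repeat lungs above all on-doxycycline lungs. Fcgr1, a high-affinity IgG receptor, rose by 1.24 ± 0.32. Ccl12, a monocyte chemokine, was called at 1.49 ± 0.51, a call lost under either other scaling and without on-doxycycline replicate 1, 2 or 4 or repeat replicate 2, 3 or 4 (1.23 to 1.54). Ccl2 had a difference of 1.27 ± 0.74 (adjusted p = 0.214). The complement receptor C3ar1 was called at 1.86 ± 0.66, but it stood at 12.21 in repeat replicate 2 and at 8.28 to 9.07 in the other 3, and without that lung the difference was 0.98 (adjusted p = 0.166). It was not called without on-doxycycline replicate 1, 2 or 4 or repeat replicate 4 either (up to 2.03).

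Of 16 neutrophil chemokines, receptors and granule genes 1 was higher and 1 lower, or 1 and 4 with median-gene scaling. Their median was -0.43, or -0.24 without on-doxycycline replicate 1 and -0.19 with lungs not above background raised to it. Fpr1, the formyl peptide receptor, was lower by a difference of -1.18 ± 0.31, from 8.12, 7.71, 7.04 and 7.15 to 6.41, 5.87, 7.27 and 5.77, and lost its call without on-doxycycline replicate 1 and repeat replicate 2 together (-0.82, adjusted p = 0.0959). Ncf1, of the phagocyte oxidase, rose by 0.94 ± 0.23. The chemokine receptors Cxcr2 and Cxcr1 had differences of -1.38 ± 0.63 and -1.30 ± 0.57 (adjusted p = 0.107 and 0.0946). Cxcr2 was called without on-doxycycline replicate 3 (-1.95) and Cxcr1 without on-doxycycline replicate 4 (-1.70). None of the 10 acute cytokine genes was called. Tnf had a difference of 0.80 ± 0.32 (adjusted p = 0.0657), and was called without on-doxycycline replicate 3 or repeat replicate 1 or 2 (0.95 to 1.00).

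Other lower genes lay in metabolism and rested partly on 1 lung. Of 5 lipid and sugar genes 3 were lower, with a median of -1.18, or -0.65 without on-doxycycline replicate 1 and repeat replicate 2 together. Ephx2, an epoxide hydrolase of fatty acids that is abundant in liver, stood at 8.99, 6.06, 6.26 and 5.47 against 5.14, 4.93, 5.73 and 4.44 (-1.63 ± 0.59). Mgam, a glucosidase, stood at 8.13, 6.47, 5.91 and 5.38 against 5.29, 4.56, 5.14 and 4.90 (-1.50 ± 0.47), and the lipid droplet gene Plin4 at 7.86, 6.86, 6.58 and 6.38 against 6.17, 5.12, 6.19 and 5.50 (-1.18 ± 0.39). In all 3 the highest level was in on-doxycycline replicate 1, the lung with liver transcripts, and without it the differences were -0.87, -0.95 and -0.86, none called. Calls were also lost without repeat replicate 2 in all 3, without repeat replicate 4 for Ephx2 and Plin4, without repeat replicate 1 for Ephx2 and without on-doxycycline replicate 2 for Plin4, over ranges of -1.66 to -0.87 for Ephx2, -1.36 to -0.95 for Mgam and -1.20 to -0.86 for Plin4. Among the liver transcripts Serpina1a stood at 15.41 in that lung against 9.03 to 9.59 in the others on doxycycline and 8.20 to 8.95 in the repeat lungs (-2.32 ± 0.86, adjusted p = 0.0523). Without the lung its difference was -0.81 (adjusted p = 0.0393), and it was called without any other on-doxycycline lung as well, at up to -2.94. Hsd11b1, which activates glucocorticoids, was lower by -0.99 ± 0.29, and -0.63 without repeat replicate 2 (adjusted p = 0.0541). Tcn2, a vitamin B12 carrier, was lower by -0.57 ± 0.14, with no overlap of groups, and Ace, the angiotensin-converting enzyme that lung capillaries carry, by -0.65 ± 0.18 with repeat replicate 2 lowest at 12.30. The part of lungs that stood apart in these differences was not tested beyond the values without them.

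The epithelial secretory lectin Itln1 was the second largest rise. It stood at 6.66, 6.55, 6.18 and 3.94 on doxycycline and at 8.18, 10.29, 9.19 and 8.34 in the repeat lungs (3.17 ± 0.87, adjusted p = 0.0109), so the groups did not overlap. On-doxycycline replicate 4, not above background, was the lowest, and without it the call was lost (2.53, adjusted p = 0.0525). The other 3 measured epithelial markers, Ager, Lamp3 and the cell adhesion gene Cdh1, had differences of -0.15 ± 0.15, -0.22 ± 0.15 and -0.06 ± 0.09 and were not called.

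Summed levels of cell type markers draw on the same genes and lungs as the list results above, so they are not separate evidence. The 22 T cell genes summed to 5337 to 7239 normalised counts on doxycycline and to 7763 to 10482 in the repeat lungs. The 14 B cell and plasma cell genes summed to 4760 to 6151 and 6889 to 10666. On the authors' scale neither sum overlapped, and repeat replicate 2 was lowest of its group in both. The mean of all 12 reference genes was 9.56 in that lung and 9.38 to 9.44 on doxycycline. The sums were not recomputed with that scaling, under which the separation may not hold. In these bulk samples, more cells of a type and more RNA per cell cannot be told apart. The 9 macrophage genes summed to 47067 to 57828 and 43386 to 57171, and the 3 epithelial markers other than Itln1 to 29427 to 37296 and 25646 to 33176, both overlapping. The 4 endothelial genes summed to 10332 to 11803 on doxycycline and to 11895, 4401, 9833 and 8842 in the repeat lungs, and the 7 dendritic cell genes to 4686 to 6341 and to 4748, 2141, 4812 and 4490. The 5 mast cell genes summed to 578 to 1254 and to 1019 to 2886, highest in repeat replicate 2. The 16 neutrophil genes summed to 3621 to 9404 and 5225 to 9528, with Csf3 and Elane above background in none of the 8 lungs. The part of cell composition in the differences above was not tested.

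**Figure D4:**
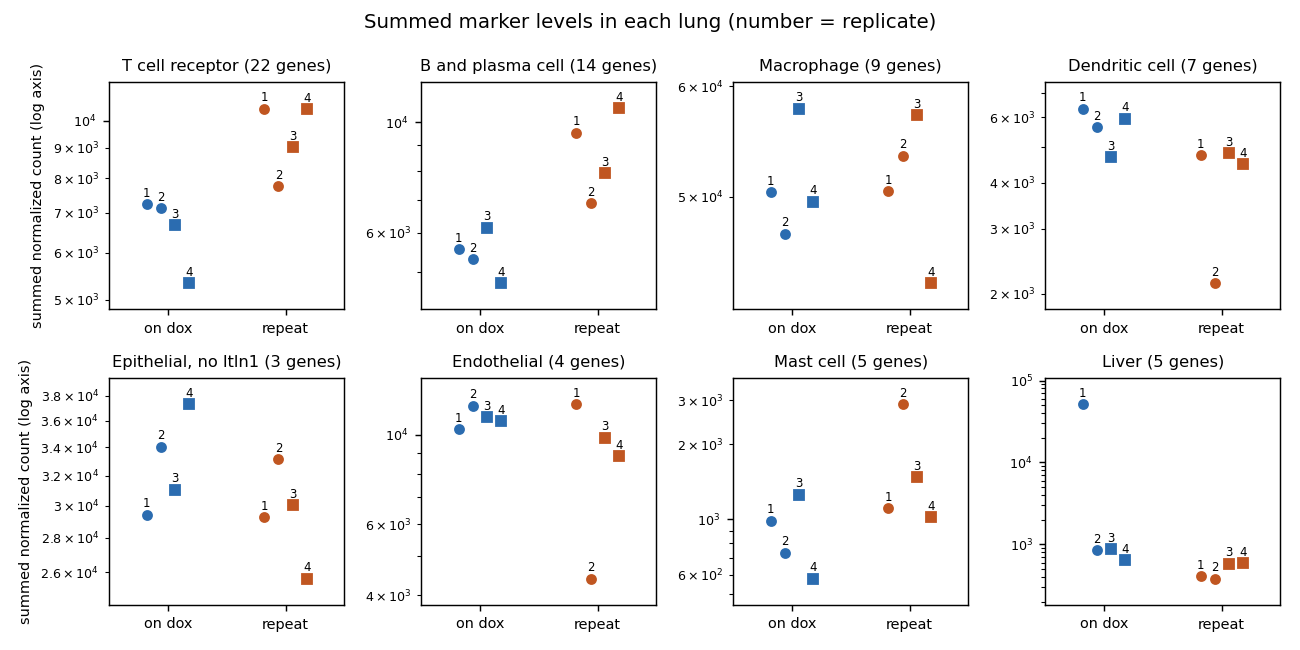
Summed normalised counts (log axis) of the measured markers of 8 cell types or tissues in each lung, on doxycycline in blue and after repeat dosing in orange, with circles for female and squares for male lungs and the replicate number above each point. On the authors' scale T and B cell sums do not overlap between groups. Liver transcripts are high in on-doxycycline replicate 1 alone (51318), and repeat replicate 2 is lowest for endothelial (4401) and dendritic cell genes (2141).

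The same repeat lungs were set beside the other day 97 groups, which share them, so the comparisons are not independent. Against lungs 3 days off doxycycline 174 genes were higher (22.5%) and 35 lower (4.53%), or 102 and 82 with median-gene scaling. Of the 180 genes higher against continued doxycycline 132 were called higher there too, and of the 23 lower 8 were called lower. Cxcl9 and Irf4 rose there by 3.94 ± 0.67 and 2.52 ± 0.31, and Cd4 by 1.29 ± 0.23, beside 0.76 ± 0.23 against continued doxycycline. Hspb1 was lower there by -0.67 ± 0.22, whereas Hsp90aa1 and Hsp90ab1 had differences of -0.13 ± 0.14 and -0.24 ± 0.15 (adjusted p = 0.561 and 0.255). For Hsp90aa1 the 95% interval ran from -0.43 to 0.17, beside a difference of -0.67 ± 0.14 against continued doxycycline. Whether the 2 differences differ was not tested. The epithelial marker Lamp3 was lower there by -0.66 ± 0.15.

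Against a single AAV-hSPB dose 97 days before harvest, 52 genes were higher (6.73%) and 4 lower (0.517%), and all 52 were among the 180. The total of 56 (7.24%) was 28 without single-dose replicate 4, 37 without single-dose replicate 3 and 34 without repeat replicate 4. With scaling to all 12 reference genes 27 were higher and 21 lower. The fit of those 8 lungs alone called 12 higher and 0 lower. Cxcl9 rose by 3.04 ± 0.67, Cxcl10 by 2.55 ± 0.44, Gbp3 by 1.37 ± 0.23 and Zbp1 by 1.61 ± 0.27. The 10 class I genes were each called again, as were Irf4 (1.47 ± 0.31), Tigit (1.89 ± 0.40), Cd28 (0.90 ± 0.18), Hsp90b1 (0.74 ± 0.16) and Itln1 (3.59 ± 0.87), and Il18 was lower by -0.87 ± 0.18. B cell genes were called in 1 of 14, Xbp1 (0.53 ± 0.16), with differences of 0.62 ± 0.30 for Cd79a (adjusted p = 0.227) and 0.38 ± 0.21 for Cd22 (adjusted p = 0.29). None of the 22 monocyte genes was called, and Cx3cr1 had a difference of 0.06 ± 0.20 (interval -0.36 to 0.49), beside 0.98 against continued doxycycline. The chaperones Hspb1, Hsp90aa1 and Hsp90ab1 had differences of -0.39 ± 0.22, -0.14 ± 0.14 and -0.22 ± 0.15, none called.

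Against the repeat dose of AAV-hSPBTLR9i no gene was called (0 of 773 by limma and 0 by voom), while 51 genes (6.6%) had an unadjusted p under 0.05. Cxcl9 differed by 0.30 ± 0.67 with an interval of -1.09 to 1.69, and Irf4 by -0.13 ± 0.31 with an interval of -0.78 to 0.52. For Tap2 the difference was 0.51 ± 0.14 (interval 0.22 to 0.80, adjusted p = 0.724), higher with AAV-hSPB. Intervals of this width do not show that the vectors act alike.

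**Figure D5:**
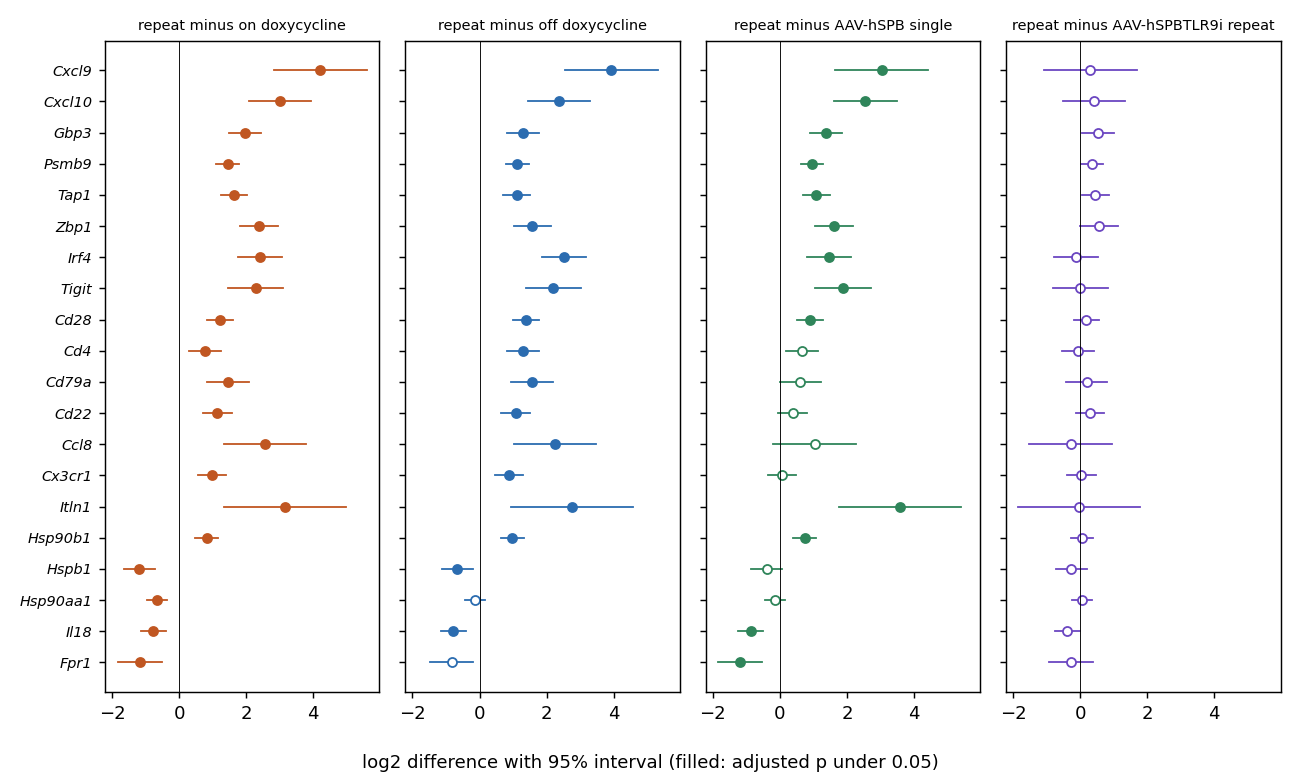
Log2 differences with 95% intervals (x axis) of 20 genes in the AAV-hSPB repeat lungs against each of 4 other day 97 groups, filled where the adjusted p is under 0.05. Cxcl9, Gbp3 and Irf4 are above 0 in the first 3 panels, Cd79a and Cd22 are filled in the first 2 only, and no point is filled against AAV-hSPBTLR9i.

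The difference between the repeat and on-doxycycline lungs was also compared between sexes. No gene passed (0 of 773 by limma, with 54, or 6.99%, at an unadjusted p under 0.05). The 3 smallest p-values belonged to Trim6, Ctla4 and Il17b. Trim6, a ubiquitin ligase, differed by -0.30 in males and 1.44 in females (adjusted p = 0.138), Ctla4 by 2.38 and 0.95 (adjusted p = 0.609), and Il17b by -0.29 and -2.35 (adjusted p = 0.609). Each of these rests on 2 lungs per sex and group, and repeat replicate 2 is a female lung.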

How the data were processed

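Total RNA from about 30 mg of frozen right lung was counted by nCounter for 773 endogenous and 12 reference genes, per the labels. The deposited table gives log2 normalised counts and the same values on a linear scale, and the deposited value table of the series gives linear signal values. The software, background treatment and reference genes the authors used are not given in the sources used here. The mean of 6 reference genes (Abcf1, Hprt, Mrps7, Nmt1, Oaz1, Tbp) was equal in all lungs, so values are relative to it. Each lung's linear values were whole multiples of 1 step, within a tolerance of 0.01, which gave back the counts.

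The deposited log2 values of all 24 day 97 lungs, in 6 groups, were fitted with limma 3.58.1 (R 4.3.3; lmFit, contrasts.fit, eBayes; 18 residual degrees of freedom), with Benjamini-Hochberg adjustment over 773 genes and a threshold of 0.05. On simulated data with 200 of 773 genes changed, the fit of repeat against on doxycycline recovered 45.6%, 78.4% and 95.1% of changes of 0.5, 1 and 2 log2 units, and 3.85% of its calls were false. How far these shares hold for the measured lungs was not tested. There, some lungs stood apart from their groups, and calls depended on the scaling and on the spread of the other groups. The 3.85% is therefore not a rate of false calls among the genes called here. Tables were handled in Python 3.11.15 with pandas 2.3.3 and drawn with matplotlib 3.10.9. The members and gene lists were chosen with earlier results of these data known. Genes were named by rank among called genes, by the smallest p-values in each list and from a set of immune genes, while Rsad2, Psmb10, Cd79b, Ccr8 and Il10 were chosen after their values were seen. Alternatives were 2 other scalings, the series' own value table, a filter of the lowest 25% of genes, values raised to background, a term for sex, a robust prior with trend, the compared groups alone, and each lung left out. A quasi-likelihood count test that was planned was not run, and voom on the recovered counts, chosen after seeing the data, stands in its place. Promoter windows are from RefSeq (GRCm38.p6). The 9 lungs of the 3-hour experiment were not used here. Some genes of the panel are not reported here by name.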

Additional observations from a re-analysis of the deposited data

Results flagged for a closer look

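In 12 of 250 sets of 4 lungs examined, 1 lung stood far from the other 3 by Dixon's test, where chance flags about 5% of sets. The number of flags was thus about what chance gives, so a flag alone does not show that a value is unusual. Repeat replicate 2 was the flagged lung for 5 genes. It was high for Myd88 at 8.74 log2 normalised counts (next lung 8.11), for Ncf1 at 10.03 (9.01) and for Jak3 at 9.40 (8.25), and low for Ms4a1 at 7.23 (9.07) and for Lilra5 at 5.65 (6.41). Repeat replicate 3 was low for H2-T23 at 9.06 (9.80) and for Tlr1 at 7.26 (7.89). On-doxycycline replicate 1 was high for H2-Q10 at 11.09 (4.25) and for Serpina1a at 15.41 (9.59). On-doxycycline replicate 4 was low for Icos at 5.31 (6.13), and on-doxycycline replicate 3 was low for Il1b at 7.93 (8.95) and for Cdh1 at 11.60 (11.74).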

How the results depend on the processing

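Of 75 counts of called genes recomputed for the comparisons, 69 stayed within 1.5 times their value and 6 moved. These counts add both directions, so a shift between higher and lower calls does not show in them. Those against the AAV-hSPBTLR9i repeat and between sexes were 0 throughout and say nothing about stability. Counts of calls per gene list against continued doxycycline, again of both directions, stayed within 1.5 times in 522 cases and moved in 180. For single named genes, 1946 recomputed differences kept their call or lack of one. In 239 a call was lost, in 24 a call was gained and in 2 the sign changed. Fitting only the compared lungs gave 84 calls against continued doxycycline, 70 against lungs off doxycycline and 12 against the single dose, in place of 180 higher and 23 lower, 174 and 35, and 52 and 4. Leaving out 1 lung gave 142 to 228, 157 to 237 and 28 to 70. No call against continued doxycycline changed sign under any of 18 settings. H2-Q10, not called at -1.76, ran from -2.50 to 0.0343 when 1 lung was left out, the latter without on-doxycycline replicate 1, and went to 0.14 without that lung and repeat replicate 2 together, since that lung alone held its high value. The scaling moved the split of higher and lower calls, to 98 and 119 (median gene), 114 and 73 (12 reference genes) and 114 and 77 (the series' value table). Against lungs off doxycycline these splits were 102 and 82, 121 and 70, and 117 and 70, and against the single dose 41 and 5, 27 and 21, and 33 and 26. Genes of which the lungs were not above background have only bounds there. No paired analysis was possible because the replicate numbers only follow accession order.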
